A study of Homo sapiens with 20 samples.

Results

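The expression levels reached after 6 h of progestin in T47D cells depleted of BRG1 were compared with those in cells given a control siRNA and treated in the same way. BRG1, the product of SMARCA4, is an ATPase of the SWI/SNF chromatin remodeller. The comparison used 4 of the 20 samples of the series, chosen by their labels alone: 2 RNA-seq libraries labelled si-BRG1 and 2 labelled si-control, all at 6 h. The quantity described is the level at 6 h, not the change from 0 h to 6 h. T47D, an established line from a human luminal breast tumour, expresses the receptors for oestrogen and progesterone. By the labels' protocols, cells were held in charcoal-stripped serum without phenol red and then overnight without serum. R5020, a synthetic progestin, was then given at 10 nM. The 2 libraries each of si-BRG1 and si-control at 0 h come from cells with the same siRNA and no R5020, and they are used only beside the 6 h values. The same holds for 2 libraries each of si-CBX3 and si-FOXA1 at 6 h, a single library without siRNA at each of 0 h and 6 h, and BRG1 ChIP-seq peak lists at 0 and 30 min. No source used here gives the siRNA sequences or the time from transfection to harvest.

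SWI/SNF complexes use ATP to slide or evict nucleosomes, and each complex holds either BRG1 or its paralog BRM (SMARCA2) as the motor. In breast cells the progesterone receptor recruits chromatin remodellers when it binds hormone, and both induced and repressed targets depend on them. By its title the series asks whether BRG1 takes part in hormone repression through the linker histone H1.2.

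The 4 libraries held between 58296067 and 74374857 fragments assigned to genes, so sampling error was small for most genes, and no fragment was assigned to a mitochondrial gene in any library. The 2 si-BRG1 libraries at 6 h differed from each other more than the 2 of any other group. The chi-square per degree of freedom between replicates was 57.1 in si-BRG1 at 6 h and 8.83 in si-control at 6 h. Part of the difference followed transcript length, measured as the union of a gene's exons. Genes of 8 kb or more had a median log2 CPM (fragment counts scaled to a common library size) 0.11 above the si-control mean in si-BRG1 replicate 1 and 0.27 above it in replicate 2, while genes under 1 kb stood at -0.25 and -0.49. Each si-control library stayed within 0.02 of their mean in every length class. Among genes of 8 kb or more, 39.3% were called higher in si-BRG1 and 8.1% lower, against 7.9% higher and 24.2% lower among genes of 1 to 2 kb. Counts for most gene groups are therefore also given from a fit with a length offset, which removes a smooth length trend from each library and was added after the data were seen. What produced the trend was not tested.

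**Figure D1:**
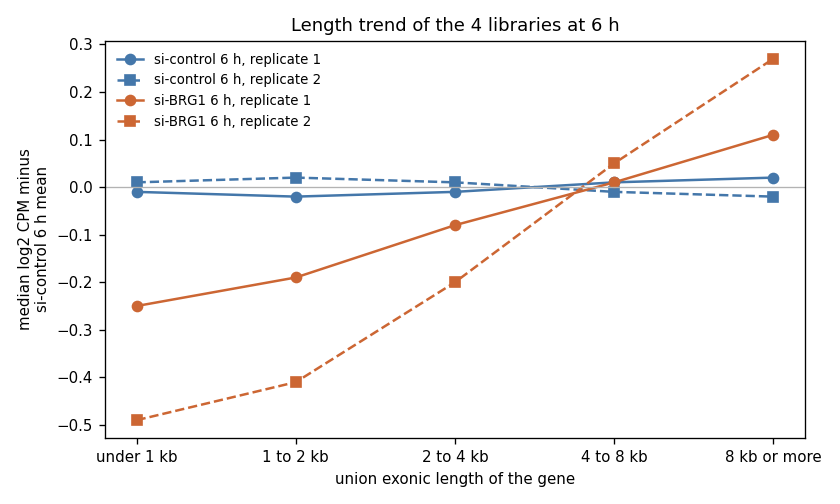
Median log2 CPM of genes in 5 classes of exonic length, minus the mean of the 2 si-control libraries, for each of the 4 libraries at 6 h (genes with a mean log2 CPM of at least 3). The si-control lines stay within 0.02 of 0, and the si-BRG1 lines climb from -0.25 to 0.11 and from -0.49 to 0.27.

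SMARCA4 (ENSG00000127616.13, hg19 chromosome 19, 11071598 to 11176071, plus strand) was read at 61.7 and 63.0 CPM in the si-control libraries at 6 h and at 2.26 and 5.66 CPM in the si-BRG1 libraries. Both si-BRG1 libraries lay far below both controls, and the first held the deeper loss. The mean fell from 62.4 ± 0.895 to 3.96 ± 2.40 CPM (SD, n = 2), a log2 fold change of -3.94 (standard error, SE, 0.22, adjusted p = 5.24e-09 by edgeR's quasi-likelihood test with Benjamini-Hochberg adjustment). At 0 h the log2 fold change was -3.71, and the difference between the times did not pass the test (adjusted p = 0.69). SMARCA2, which encodes the alternative motor BRM, stood at 26.3 and 24.3 CPM in si-control and at 32.7 and 42.9 in si-BRG1, a log2 fold change of 0.58 (SE 0.10, adjusted p = 0.000383). The rise was not particular to si-BRG1. Against the same si-control libraries, SMARCA2 was at 0.86 in si-CBX3 and 1.58 in si-FOXA1 at 6 h, where SMARCA4 was at 0.93 and 1.27.

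Of 18806 genes tested, 3682 (19.6%) were higher in si-BRG1 at 6 h and 3342 (17.8%) were lower at an adjusted p below 0.05. Together they were 37.3% of the genes tested, so a list of genes needs a share well above these to stand apart. Most differences were small: 623 genes were higher and 407 lower by at least 2-fold, and 101 and 74 by at least 4-fold. The median log2 fold change over all genes was 0.04. The CPM values of the groups did not overlap for 32.9% of genes tested with si-BRG1 higher and for 29.8% with si-BRG1 lower. With DESeq2's size factors in the same fit, 3290 genes were higher and 3793 lower, so the share of calls that were higher went from 52.4% to 46.4%. The labels do not say that replicates came from separate cultures, so the spread behind each p-value may be technical. That spread was estimated over all 16 siRNA libraries, while the si-BRG1 replicates at 6 h differed more than those of any other group. With only the 4 libraries at 6 h in the fit, 2023 genes were higher and 1791 lower. In bulk RNA, a change in the number of cells of a kind and a change in RNA per cell cannot be told apart.

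**Figure D2:**
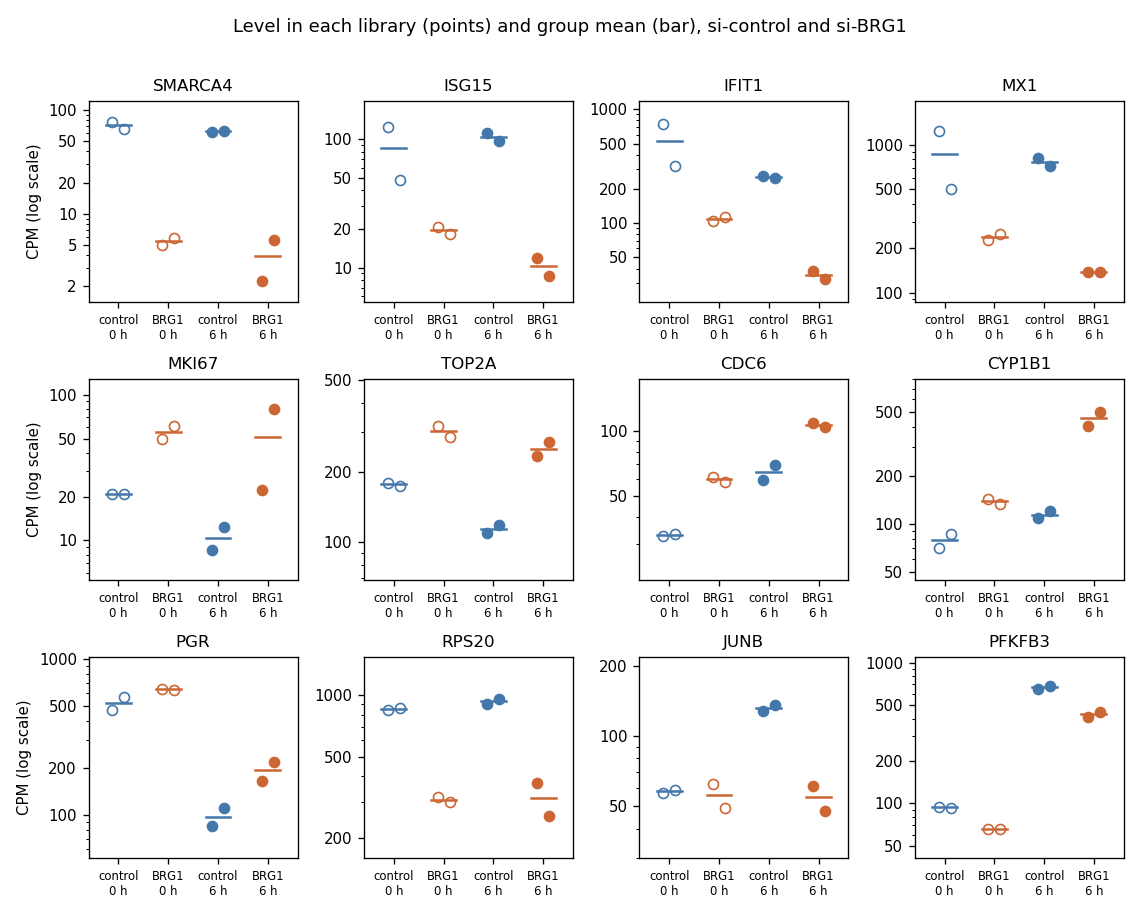
CPM of 12 genes in each library (points, log axis) and the group mean (bar), for si-control and si-BRG1 at 0 h (open) and 6 h (filled). SMARCA4 is at 2.26 and 5.66 CPM in si-BRG1 at 6 h against 61.7 and 63.0 in si-control, interferon genes lie below and cell cycle genes above their controls at both times.

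**Figure D3:**
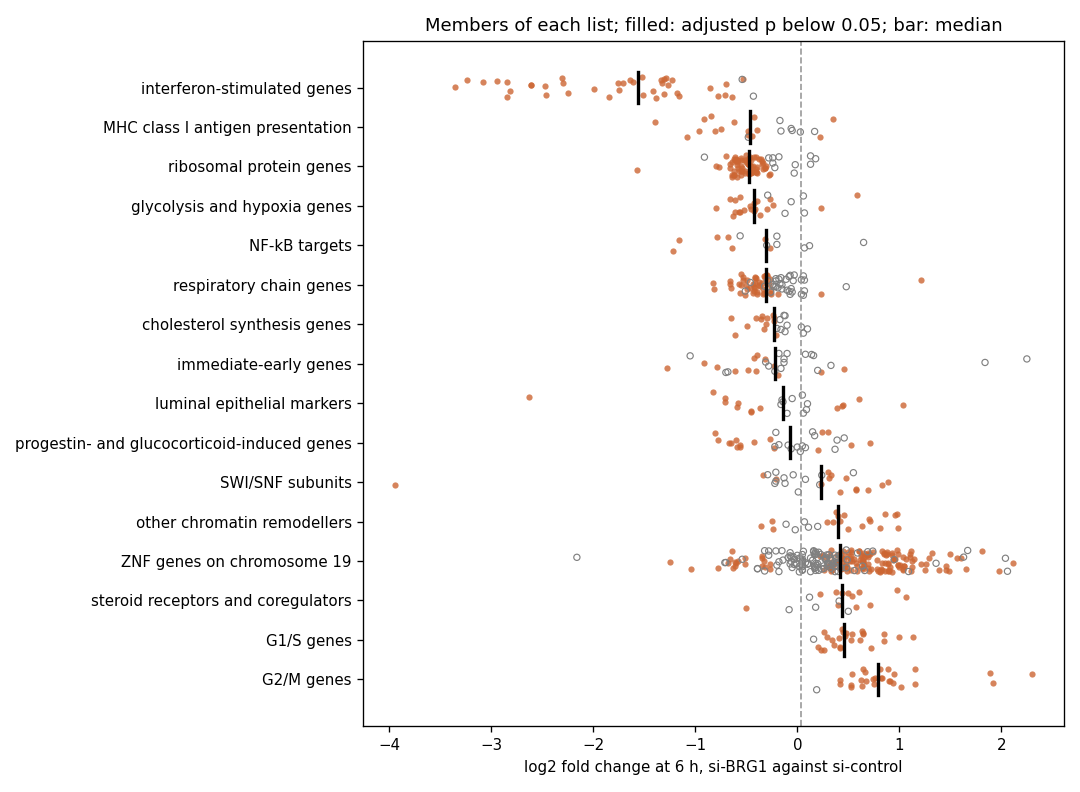
Log2 fold change at 6 h of every tested member of 16 gene lists, filled where the adjusted p is below 0.05, with the list median (bar) and the median of all genes (dashed line, 0.04). The list medians run from -1.56 for interferon-stimulated genes to 0.79 for G2/M genes.

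Among the largest falls beside SMARCA4 were interferon-stimulated genes, the antiviral effectors that cells switch on through STAT and IRF factors bound at interferon response elements. The RefSeq promoters (GRCh38.p14) of 4 of them are shown because they carry this element. Capitals mark every stretch of GAAA, 2 bases of any kind and GAAA again, on either strand, and matches that overlap run together. Each entry runs from 250 bases before to 50 bases after the annotated start. ISG15 is at chr1:1013247-1013546 (plus strand), IFIT1 at chr10:89392373-89392672 (plus), IFITM1 at chr11:313790-314089 (plus) and the first listed start of IFI27 at chr14:94110486-94110785 (plus).
ISG15: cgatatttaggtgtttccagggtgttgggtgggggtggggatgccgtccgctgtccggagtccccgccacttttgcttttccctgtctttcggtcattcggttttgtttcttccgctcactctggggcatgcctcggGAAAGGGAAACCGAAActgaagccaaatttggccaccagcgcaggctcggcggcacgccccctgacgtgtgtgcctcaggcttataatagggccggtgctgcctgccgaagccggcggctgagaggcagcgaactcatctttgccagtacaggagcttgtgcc
IFIT1: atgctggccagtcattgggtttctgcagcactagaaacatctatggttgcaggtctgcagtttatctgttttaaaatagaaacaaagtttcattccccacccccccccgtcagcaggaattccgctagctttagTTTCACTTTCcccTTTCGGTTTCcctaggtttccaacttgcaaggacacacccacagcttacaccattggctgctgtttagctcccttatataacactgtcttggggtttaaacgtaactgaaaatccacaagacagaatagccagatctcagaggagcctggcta
IFITM1: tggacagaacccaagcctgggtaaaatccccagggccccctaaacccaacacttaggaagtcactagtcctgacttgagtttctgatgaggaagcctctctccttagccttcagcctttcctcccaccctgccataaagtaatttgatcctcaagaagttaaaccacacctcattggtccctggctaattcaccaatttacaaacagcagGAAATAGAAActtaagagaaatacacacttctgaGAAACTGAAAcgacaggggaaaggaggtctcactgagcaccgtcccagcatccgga
IFI27: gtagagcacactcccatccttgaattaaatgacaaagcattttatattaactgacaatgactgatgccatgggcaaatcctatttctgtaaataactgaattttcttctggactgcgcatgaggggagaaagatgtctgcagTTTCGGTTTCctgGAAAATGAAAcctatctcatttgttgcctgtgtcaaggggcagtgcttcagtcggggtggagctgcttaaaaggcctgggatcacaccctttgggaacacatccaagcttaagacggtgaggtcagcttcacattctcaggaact
Of the 42 interferon-stimulated genes tested, 33 had a promoter entry, and 22 of these (66.7%) held a match in at least 1 entry. Over all tested genes with an entry the share was 3.73% (464 of 12441). A match describes the letters only and shows no binding.

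ISG15, a ubiquitin-like protein attached to other proteins during antiviral responses, was read at 112 and 97.1 CPM in si-control and at 11.9 and 8.63 CPM in si-BRG1. Both knockdown libraries were low, and the log2 fold change was -3.35 (SE 0.34, adjusted p = 1.96e-06). IFIT1, which binds viral RNA caps, stood at 257 and 247 CPM against 37.8 and 32.5 (log2 fold change -2.84, SE 0.30). MX1, a GTPase that traps viral particles, stood at 810.4 and 722 CPM against 138 in each si-BRG1 library (log2 fold change -2.47, SE 0.28). The RNA-sensing synthetases OAS1 and OASL had log2 fold changes of -2.61 each. IRF7, the factor that amplifies the response, went from 13.3 and 13.2 CPM to 3.35 and 3.32. These genes were chosen among the largest falls with separate groups, and groups lay apart in this direction for 29.8% of all genes tested.

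Across the interferon list, 40 of 42 tested genes were lower and 0 were higher, with a median log2 fold change of -1.56 against 0.04 for all genes. The calls ran from -3.35 to -0.53. The 2 members that missed the threshold, EIF2AK2 at -0.54 and IRF9 at -0.43, also had lower estimates, and they are named after their values were seen. With the length offset 41 were lower, and without any 1 of the 4 libraries between 39 and 41. At 0 h 41 of 42 were already lower in si-BRG1, with a median of -1.35. The 13.4% of all genes that were lower at 0 h sets that count in scale.

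The level of these genes in si-control itself was high. The median member stood at 10.6 and 9.71 RPKM (reads per kilobase, scaled for depth) in the si-control libraries at 6 h and at 3.69 and 4.13 in si-BRG1, against 1.38 in the library without siRNA at 6 h. In that library 34 of 42 members lay below both si-control libraries and 31 lay below both si-BRG1 libraries too. That library was quantified by the authors with another method, so the levels are set side by side and not tested. The si-CBX3 and si-FOXA1 libraries share the si-control libraries as their reference. There the median member was at 21.8 and 21.2 CPM in si-CBX3 and 7.38 and 8.14 CPM in si-FOXA1, beside 14.0 and 11.7 in si-BRG1 and 49.1 and 49.6 in si-control. Of the 42 members, 34 were lower in si-CBX3 (24.4% of the whole table) and 38 in si-FOXA1 (34.5% of it). The 2 si-control libraries at 0 h differed, with medians of 96.7 and 46.8 CPM. What set the si-control level was not tested.

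**Figure D4:**
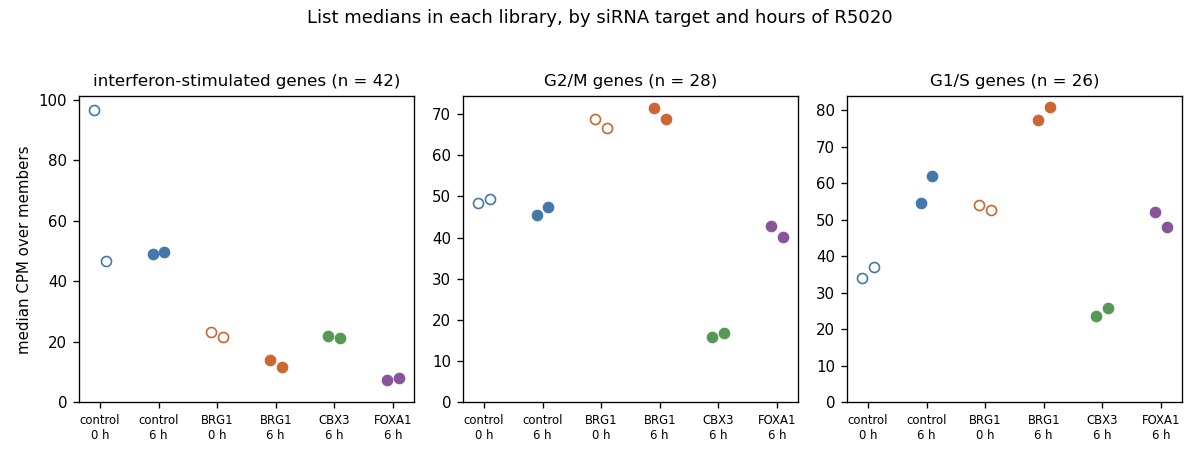
Median CPM over the tested members of 3 lists in each library, by siRNA target and hours of R5020 (points are the 2 libraries of a group). Interferon-stimulated genes lie at 49.1 and 49.6 in si-control at 6 h and lower under all 3 other siRNAs. The medians of G2/M and G1/S genes lie above the si-control libraries of 6 h in si-BRG1 but not in si-CBX3 or si-FOXA1. Single members can differ from these medians.

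Genes of MHC class I presentation, which display peptides to T cells and respond to interferon, were lower to a smaller degree. Of 22 tested, 13 were lower and 2 higher, with a median of -0.46. HLA-E stood at 312 and 297 CPM in si-control against 189 and 158 in si-BRG1 (log2 fold change -0.81, SE 0.09), HLA-F at 31.2 and 28.9 against 12.6 and 10.3, and the light chain B2M at 789 and 797 against 609 and 526. HLA genes are near-identical copies of each other, so reads may be divided among them uncertainly. The 2 higher members, named after their values were seen, were the lumenal chaperones CALR (0.35) and PDIA3 (0.22). The counts were the same with the length offset. Of 14 tested NF-kB targets, 7 were lower and 0 higher, among them the adhesion molecule ICAM1 (-1.22, SE 0.15) and the interferon regulator IRF1 (-1.16, SE 0.13), which is also counted in the interferon list. Without si-control replicate 2 that count was 4, and with the length offset it was 7.

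Cell cycle genes moved the other way. Many G2/M genes are silenced outside division through the cell cycle homology region, TTTGAA, in their promoters, where the DREAM complex binds. The RefSeq promoters (GRCh38.p14) of 4 mitotic genes are shown with this motif in capitals on either strand. MKI67 is at chr10:128126374-128126673 (minus strand), TOP2A at chr17:40417847-40418146 (minus), CENPF at chr1:214602945-214603244 (plus) and PRC1 at chr15:90994486-90994785 (minus).
MKI67: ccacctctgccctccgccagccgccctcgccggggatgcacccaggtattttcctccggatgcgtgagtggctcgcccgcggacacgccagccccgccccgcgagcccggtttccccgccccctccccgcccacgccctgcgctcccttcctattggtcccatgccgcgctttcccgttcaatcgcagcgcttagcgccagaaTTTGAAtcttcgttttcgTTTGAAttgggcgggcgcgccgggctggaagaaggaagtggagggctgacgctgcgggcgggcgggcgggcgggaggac
TOP2A: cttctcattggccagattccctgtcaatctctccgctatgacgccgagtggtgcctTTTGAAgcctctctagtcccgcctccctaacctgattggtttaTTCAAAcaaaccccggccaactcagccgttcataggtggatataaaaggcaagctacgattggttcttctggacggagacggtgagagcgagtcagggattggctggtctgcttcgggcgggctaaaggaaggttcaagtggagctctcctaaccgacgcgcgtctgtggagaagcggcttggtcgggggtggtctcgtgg
CENPF: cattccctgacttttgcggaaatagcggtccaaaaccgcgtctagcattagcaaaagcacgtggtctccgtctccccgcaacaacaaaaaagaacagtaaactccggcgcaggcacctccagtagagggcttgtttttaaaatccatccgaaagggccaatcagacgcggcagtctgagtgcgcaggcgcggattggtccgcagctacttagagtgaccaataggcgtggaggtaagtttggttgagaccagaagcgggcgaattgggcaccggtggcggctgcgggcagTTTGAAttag
PRC1: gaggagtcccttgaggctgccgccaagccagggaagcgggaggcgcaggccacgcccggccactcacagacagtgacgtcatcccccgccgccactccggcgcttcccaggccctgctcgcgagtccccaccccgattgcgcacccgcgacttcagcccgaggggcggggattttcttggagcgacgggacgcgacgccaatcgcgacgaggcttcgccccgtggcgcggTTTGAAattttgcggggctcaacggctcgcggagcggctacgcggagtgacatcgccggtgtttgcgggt
Of 23 G2/M genes with an entry, 17 (73.9%) held a match, against 13.9% of all tested genes with an entry and 1 of 22 G1/S genes. The motif is short, and a match is no evidence of a bound site.

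TOP2A, the topoisomerase that untangles replicated DNA, was read at 109.9 and 119 CPM in si-control and at 236 and 270.2 in si-BRG1, and the groups lay well apart (log2 fold change 1.15, SE 0.10, adjusted p = 5.94e-07). PRC1, which bundles the central spindle, went from 75.6 and 83.6 CPM to 149 and 146. CCNB1, the mitotic cyclin, went from 93.6 and 98.9 to 163 and 143. These values repeated closely between the replicates.

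MKI67, which coats mitotic chromosomes, did not repeat so closely. It stood at 8.54 and 12.4 CPM in si-control and at 22.1 and 80.1 in the si-BRG1 libraries, so the larger part of its log2 fold change of 2.30 (SE 0.38) came from replicate 2. Without that library the estimate was 1.08. The kinetochore proteins CENPF (25.2 and 26.5 against 62.3 and 129 CPM) and CENPE (2.04 and 1.54 against 4.69 and 8.69) showed the same split. All 3 belong to the class of transcripts of 8 kb or more, in which replicate 2 stood highest. With the length offset their log2 fold changes were 1.97, 1.62 and 1.71, all past the threshold. Against the same si-control libraries, MKI67, CENPF and CENPE were at -0.52, -1.48 and -1.95 in si-CBX3. In si-FOXA1 they were at 3.76, 3.16 and 3.83, above their si-BRG1 values.

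Of 28 G2/M genes tested, 27 were higher and 0 lower, with a median of 0.79 and calls from 0.42 to 2.30. CDC20, named after its value was seen, was the exception at 0.19. With the length offset all 28 were higher. Of 26 G1/S genes, which encode replication factors and nucleotide enzymes, 25 were higher and 0 lower (median 0.46), as with the length offset, and FEN1, the flap nuclease, was at 0.16 without a call. CDC6, a replication licensing factor, stood at 59.1 and 69.9 CPM against 109 and 104. The replication initiator MCM10 had a log2 fold change of 1.13 (SE 0.11) and the transcription factor E2F1 one of 0.63 (SE 0.08). At 0 h 27 G2/M genes and 22 G1/S genes were already higher (15.1% of all genes were). In si-CBX3, which shares the si-control libraries, 27 G2/M genes and 25 G1/S genes were lower. In si-FOXA1 10 G2/M genes were higher and 11 lower, and 12 G1/S genes were higher and 10 lower. Of all genes tested, 24.7% rose and 24.4% fell under si-CBX3, and 40.1% and 34.5% under si-FOXA1.

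A pair of cyclin-dependent kinase inhibitors were lower. CDKN1A, which encodes p21 and halts the cycle in G1, went from 310.3 and 314 CPM to 189.9 and 161 (log2 fold change -0.83, SE 0.08), and it was lower at 0 h too (-0.92). CDKN2B, which encodes p15, went from 19.5 and 19.9 CPM to 7.91 and 8.04 (log2 fold change -1.31, SE 0.09). The groups did not overlap for either gene, which held in this direction for 29.8% of all genes tested. Of 20 p53 targets tested, 7 were lower and 3 higher, or 6 and 3 with the length offset. The pro-apoptotic BBC3 (-1.17, SE 0.18) and BAX (-0.49, SE 0.08) were lower, and the repair factor XPC was higher (0.70, SE 0.08).

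Among the 26 tested SWI/SNF subunits, SMARCA4 was joined by only 2 lower members of small size, BCL7C (-0.34) and DPF2 (-0.21), which are named after their values were seen. The 11 higher members had log2 fold changes of 0.23 to 0.89. Rises were not particular to si-BRG1. Against the same si-control libraries, 12 subunits were higher and 3 lower in si-CBX3 (24.7% and 24.4% of all genes). In si-FOXA1 19 were higher and 5 lower (40.1% and 34.5% of all genes). SMARCE1, a DNA-binding core subunit, went from 100.1 and 88.0 CPM to 161 and 173 (log2 fold change 0.83, SE 0.08). BRD7, a subunit of the PBAF form, had 0.69 (SE 0.10). ARID1B, the large subunit of the BAF form, had 0.42 (SE 0.08), but it has 16334 bases of exon, and with the length offset it was at 0.08 (adjusted p = 0.336). With that offset 8 subunits were higher and 5 lower, and without si-BRG1 replicate 1 the lower count was 6. Per length, SMARCA4 stood at 5.69 RPKM in si-control and at 0.361 in si-BRG1, while SMARCA2 stood at 3.55 and 5.30.

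Of 23 other chromatin remodellers, 15 were higher and 3 lower (median 0.40). CHD3, a NuRD motor, went from 83.2 and 78.6 CPM to 133 and 187 (log2 fold change 0.99, SE 0.11), and BAZ1A, an ISWI partner, had 0.86 (SE 0.11). RUVBL2, a helicase of the INO80 family, was lower (-0.36, SE 0.06). In si-CBX3 4 remodellers were higher and 6 lower (24.7% and 24.4% of all genes), and in si-FOXA1 17 and 4 (40.1% and 34.5%). The list has a median exonic length of 10106 bases. The higher count was 10 with the length offset and the list median 0.09, so both lean on length. Over all genes the higher count went from 3682 to 2965 with that offset. Fewer remodellers were called higher without si-BRG1 replicate 2 or without si-control replicate 2, but so were fewer of all genes. Of 27 Polycomb subunits, 12 were higher and 2 lower, and with the length offset 7 and 2. In si-CBX3 13 of them were higher and 5 lower, and in si-FOXA1 16 and 5. In si-BRG1 some single members went as follows. RBBP7, a histone chaperone shared with other complexes, was at 0.64 (SE 0.07), SUZ12, a core subunit of PRC2, at 0.55 (SE 0.09) and the chromodomain protein CBX8 at -0.56 (SE 0.08).

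Of 18 HP1 proteins and co-repressors, 7 were higher and 1 lower. The H3K9 methyltransferase SUV39H2 went from 18.4 and 19.6 CPM to 41.8 in each si-BRG1 library, a log2 fold change of 1.14 (SE 0.08) that the replicates shared. The deacetylase HDAC1 went from 78.7 in each control to 147 and 136 (0.84, SE 0.07). TRIM28, a scaffold of KRAB zinc finger repression, was lower (-0.29, SE 0.07). In si-CBX3 and si-FOXA1, SUV39H2 was at 0.73 and 0.61, HDAC1 at 0.83 and 0.41 and TRIM28 at -0.37 and -0.50. Of the list, 7 were higher and 7 lower in si-CBX3, and 8 and 5 in si-FOXA1. In si-BRG1 the counts shifted between fits. The higher count was 5 with the length offset, and 4 without si-BRG1 replicate 2 or without si-control replicate 1.

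H1-2 (ENSG00000187837.2, hg19 chromosome 6, 26055968 to 26056699, minus strand), the gene of the linker histone in the series title, stood at 88.0 and 75.4 CPM in si-control and at 77.8 and 58.2 in si-BRG1. The groups overlapped, and the log2 fold change of -0.27 (SE 0.11) did not pass the test (adjusted p = 0.0583). With the length offset it was -0.29 and passed (adjusted p = 0.0343). DESeq2 gave -0.30 and also passed (adjusted p = 0.0252), while the fit of the 4 libraries alone gave -0.26 and did not (adjusted p = 0.223). It was lower at 0 h (-0.37, adjusted p = 0.0141). Over the 4 fits without 1 library the estimate ran from -0.49 to -0.07, with 2 calls. Of 6 linker histone genes 1 was lower (2 with the length offset), H1-10 (-0.41, SE 0.11), and it lost its call in 2 of those fits. H1-3, H1-4 and H1-5 were all below 1 CPM in the 4 libraries, which were made with an mRNA kit, while genes of this kind make mostly RNA without a poly(A) tail. Among 12 core histone genes, the variants H2AZ1 (0.32, SE 0.07) and H2AZ2 (0.18, SE 0.07) and the gene H2BC5 (0.58, SE 0.10) were higher, and H3-3B, H3C4 and H4C8 were lower, and with the length offset 2 were higher and 2 lower. The calls of H2AZ2 and H4C8 each held in only 1 of the 4 fits without a library and were lost with the length offset. Histone genes are near-identical copies, so their counts are uncertain.

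PGR (ENSG00000082175.10, hg19 chromosome 11, 100900355 to 101001255, minus strand), which encodes the receptor for R5020, stood at 84.4 and 110.1 CPM in si-control and at 166 and 219 in si-BRG1 at 6 h. Both si-BRG1 libraries were higher (log2 fold change 0.98, SE 0.14, adjusted p = 4.26e-05). At 0 h it stood at 473 and 571 CPM against 641 and 633, a log2 fold change of 0.29 that did not pass the test, and the difference between the times was 0.70 (adjusted p = 0.0466). In si-CBX3 and si-FOXA1 at 6 h, with the same si-control libraries as reference, PGR was at 1.19 and 1.09. PGR has 15305 bases of exon, and the length offset left 0.66 for si-BRG1 at 6 h (adjusted p = 0.000483). ESR1, the oestrogen receptor, went from 92.1 and 91.0 CPM to 135 and 143 (0.60, SE 0.06, and 0.32 with the length offset). The glucocorticoid receptor gene NR3C1 was higher (0.58, SE 0.08), as was the mineralocorticoid receptor gene NR3C2 (1.07, SE 0.12). Of 17 receptors and coregulators, 11 were higher and 1 lower, the arginine methyltransferase PRMT1 (-0.50, named after its value was seen). The higher count was 8 with the length offset and 7 without si-BRG1 replicate 2, and the list's median exonic length is 9337 bases.

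Classical targets of progestins and glucocorticoids did not move as one. Of 30 tested, 5 were higher and 11 lower, with a median of -0.07, and with the length offset 4 were higher and 14 lower. FKBP5, a chaperone of steroid receptors, reached 1140.3 and 1030.0 CPM in si-control and 1165 and 1237 in si-BRG1 (log2 fold change 0.15, SE 0.07, adjusted p = 0.0988), although it had been higher in si-BRG1 at 0 h (0.60). SGK1, a kinase induced by steroids, was at -0.22 (SE 0.11, adjusted p = 0.117). It has 9992 bases of exon, and with the length offset it was at -0.43 and passed the same test (adjusted p = 0.00723). TSC22D3, the leucine zipper GILZ, went from 155 and 169 to 190.2 and 180.5 CPM (0.20, SE 0.07, adjusted p = 0.0314), and the call was lost in 2 of the 4 fits without 1 library and with the length offset. ERRFI1, an inhibitor of EGF receptors, was lower at 84.7 and 82.1 CPM against 137 and 149 (-0.78, SE 0.07). KLF15 (-0.67, SE 0.10), KLF9 (-0.59, SE 0.09), both Krüppel-like factors, and the transcription factor STAT5A (-0.56, SE 0.09) were lower as well. The elongation factor gene ELL2 was higher at 141 and 144 CPM against 82.3 and 91.1 (0.71, SE 0.07). Without si-control replicate 1 the higher count was 3.

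Of 24 oestrogen receptor targets, 7 were higher and 7 lower, or 6 and 7 with the length offset. TFF1, a secreted trefoil peptide, was low in all 4 libraries, at 1.42 and 1.57 CPM in si-control and 0.278 and 0.206 in si-BRG1 (log2 fold change -2.63, SE 0.36). IGFBP4 (0.71, SE 0.08) and IGFBP5 (0.60, SE 0.06), which bind insulin-like growth factors, were higher. MYB, a proliferation factor, went from 1.17 and 1.21 CPM to 3.79 and 4.02 (1.71, SE 0.16). STC2, a secreted glycoprotein, was lower (-0.73, SE 0.10).

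Genes of central metabolism were mostly lower. Of 26 glycolysis and hypoxia genes, 19 were lower and 2 higher (median -0.42), and with the length offset 19 and 1. PFKFB3, which makes the activator of phosphofructokinase, stood at 649 and 684 CPM against 410.5 and 448 (log2 fold change -0.63, SE 0.06). The hexokinase HK2 went from 138 and 121 to 87.1 and 87.8, and the stress gene NDRG1 from 190.2 and 161 to 106 and 96.0. The 2 higher members, named after their values were seen, were the peptide ADM (0.59) and the oxygen sensor EGLN3 (0.23). Before hormone 13 of the 26 were lower. In si-CBX3 and si-FOXA1, with the si-control libraries of 6 h as reference, 18 were lower in each, and 2 and 5 were higher. Of all genes tested, 24.4% were lower in si-CBX3 and 34.5% in si-FOXA1.

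Of 23 cholesterol synthesis genes, 13 were lower and 0 higher, with calls from -0.65 to -0.21, but without si-control replicate 1 the lower count was 5 and without si-control replicate 2 it was 8. With the length offset it was 15. Of 19 fatty acid and glycerolipid genes, 8 were lower and 2 higher, or 10 and 1 with the length offset. LPIN1, a phosphatidate phosphatase, went from 30.7 and 30.1 CPM to 12.9 and 15.1, a log2 fold change of -1.11 (SE 0.08), and the desaturase SCD from 3139 and 2878 to 2462 and 2389.

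Ribosomal protein genes were lower almost throughout, with 72 of 83 lower and 0 higher (median -0.47, calls from -1.57 to -0.27). RPS20 stood apart at 905 and 953 CPM against 370.4 and 256 (log2 fold change -1.57, SE 0.13). RPS3 stood at 1216 and 1244 against 898 and 703, and RPL14 at 638 and 645 against 438 and 388, with replicate 2 the lower in both. The median member stood at 563 and 559 CPM in si-control and at 438 and 340 in si-BRG1. Fewer ribosomal protein genes were called lower without si-BRG1 replicate 2 or without si-control replicate 2. These genes are short, with a median exonic length of 2847 bases, and 71 were lower with the length offset (median -0.44). They have many processed pseudogenes that can share reads, so single values are uncertain. At 0 h 74 were lower. In si-CBX3 and si-FOXA1, with those si-control libraries as reference, 72 and 77 were lower. Of 81 nuclear respiratory chain genes, 46 were lower and 2 higher (median -0.31), with 47 lower under the length offset. COX5B, a subunit of complex IV, stood at 157 and 170.1 CPM against 121 and 88.3. Without si-BRG1 replicate 2, in which short transcripts were lowest, 24 respiratory genes were lower, and without si-control replicate 2, 28. Of the higher members, COX7B2 (1.21) is named after its value was seen.

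Genes on chromosome 19 with a ZNF symbol, a set that holds the KRAB zinc finger repressors of that chromosome, were called higher more often than lower. The set was taken by symbol and also includes antisense and divergent transcripts, pseudogenes and readthrough genes. Of 263 tested, 134 (51.0%) were higher and 20 lower, with a median of 0.42, and 128 and 20 with the length offset. The lower count was 11 without si-BRG1 replicate 2 and also without si-control replicate 2. Without either of these libraries the higher count was smaller too. The median member stood at 5.02 and 4.95 CPM in si-control and at 5.89 and 6.76 in si-BRG1, with replicate 2 further from control. ZNF83 went from 5.78 and 5.75 CPM to 16.6 and 23.8 (log2 fold change 1.81, SE 0.14). ZNF765 went from 5.25 and 4.95 to 14.3 in each si-BRG1 library (1.49, SE 0.11), and ZNF761 from 7.84 and 9.06 to 24.8 and 25.2 (1.57, SE 0.12). Not all moved this way: ZNF812P, annotated as a pseudogene, was the most abundant of those named and fell from 335 and 320.3 to 147 and 129. At 0 h 87 were higher and 7 lower. Against the si-control libraries of 6 h, 81 were higher and 33 lower in si-CBX3 (24.7% and 24.4% of all genes). In si-FOXA1 170 were higher and 37 lower (40.1% and 34.5% of all genes). Members of these clusters resemble each other, so reads may be shared among them.

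Luminal markers differed in both directions. Of 23 luminal markers tested, 9 were lower and 5 higher, and their summed level fell from a range of 17184 to 17291 CPM to one of 13075 to 14745. KRT19, a simple epithelial keratin, stood at 4065 and 4242 CPM against 3047 and 2475 (log2 fold change -0.59, SE 0.09), and PIP, a secreted protein of apocrine cells, at 2276 and 2136 against 1390.3 and 1305 (-0.71, SE 0.09). ELF3, an epithelial ETS factor, went from 78.4 and 71.0 to 48.5 and 42.7. The 5 higher markers, named after their values were seen, were TFAP2B (1.04), ESR1 (0.60), GATA3 (0.45), MUC1 (0.44) and TFAP2A (0.39). The claudins CLDN3 (-0.82, SE 0.16), CLDN4 (-0.83, SE 0.10) and CLDN7 (-0.55, SE 0.09), which seal tight junctions, were lower. The claudins CLDN1 (0.12) and CLDN12 (-0.08) had no call. Without si-BRG1 replicate 2 or si-control replicate 2 the higher luminal count was 2, and with the length offset 9 were lower and 4 higher. Of 23 cell junction genes 8 were lower and 4 higher, or 11 and 3 with the length offset, and without either of the same libraries 2 were higher. Higher members included EVPL, an envelope protein of desmosomes (1.07, SE 0.19), at 30.9 and 28.4 CPM against 41.7 and 82.6, a rise that again differed between the si-BRG1 libraries.

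Of 16 basal markers, 7 were higher and 1 lower, or 6 and 2 with the length offset. SOX9, a progenitor factor, went from 59.5 and 57.7 CPM to 96.0 and 128 (0.94, SE 0.10). The lower one was TRIM29 (-0.69, SE 0.09). Matrix and adhesion genes were called higher for 9 of 27 and lower for 3, but with the length offset 3 were higher and 4 lower, so their direction depended on the length trend. FN1, fibronectin, was at 0.60 (SE 0.08), or 0.26 with the offset, while TIMP1, a protease inhibitor of 1790 bases, went from 8.37 and 7.87 CPM to 2.07 and 2.19 (-1.93, SE 0.14). Without si-BRG1 replicate 2 the higher matrix count was 5, and without si-control replicate 2 it was 3.

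Leukocyte and endothelial markers were low in all 4 libraries. The 12 leukocyte markers summed to 23.3 to 24.7 CPM in si-control and 17.7 to 18.8 in si-BRG1, with PTPRC and CD3E at 0 in all 4 libraries. The endothelial markers summed to 14.4 to 15.3 and 13.5 to 15.1, with EMCN and CLDN5 at 0. The mesenchymal markers summed to 185 to 192 CPM in si-control and 155 to 156 in si-BRG1. Of 8 tested, VIM (-1.22, SE 0.12) and S100A4 (-1.10, SE 0.12) were lower, and CDH2 (1.30, SE 0.21, under 2 CPM in all 4 libraries compared) and FN1 were higher.

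Early response genes leaned low after 6 h. Of 31 tested, 11 were lower and 2 higher, and the length offset gave the same counts. JUNB, an AP-1 subunit, stood at 128 and 136 CPM in si-control and at 61.2 and 47.8 in si-BRG1 (log2 fold change -1.28, SE 0.13), with no difference called at 0 h. JUND (-0.79, SE 0.14), MCL1, an anti-apoptotic gene (-0.61, SE 0.07) and the AP-1 subunit FOSL2 (-0.48, SE 0.07) were lower, and PHLDA1 was higher (0.46, SE 0.08). Without si-control replicate 2 the lower count was 6. Among 21 genes of TGF-beta and BMP signalling, 6 were lower and 3 higher (5 and 3 with the length offset), with the BMP target ID3 at 8.53 and 7.05 CPM against 19.9 and 17.8 (-1.28, SE 0.11) and the ligand store LTBP1 higher (0.62, SE 0.07). Of 24 Wnt and Notch genes 4 were lower and 3 higher, or 7 and 2 with the length offset, counts that went as low as 2 and 1 without 1 library, and of 23 ATF4 and unfolded-protein genes 7 and 5 (8 and 5 with the length offset). These shares of Wnt and Notch genes, 16.7% lower and 12.5% higher, did not exceed those of all genes tested. RNF43, a brake on Wnt receptors, was lower (-0.85, SE 0.13), and CREB3L2, a membrane-bound stress factor, was higher (0.87, SE 0.08). Without si-BRG1 replicate 1 the lower count of ATF4 and unfolded-protein genes was 12, and without si-control replicate 1 the higher count was 3.

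Outside these lists the largest rises included LIN28A (ENSG00000131914.6), an RNA-binding protein that blocks let-7 maturation, which stood at 1.57 and 1.63 CPM in si-control and at 6.69 and 12 in si-BRG1 (log2 fold change 2.56, SE 0.23). ZNF664 (ENSG00000179195.11, hg19 chromosome 12) went from 95.2 and 89.2 CPM to 349 and 410 (2.04, SE 0.09), and it rose by as much at 0 h (1.83). CYP1B1 (ENSG00000138061.7, hg19 chromosome 2, 38294116 to 38337044), an enzyme that hydroxylates oestrogens, went from 108 and 119.6 to 410.2 and 503 (2.00, SE 0.11). TCF7L1, a repressor of Wnt targets, went from 4.38 and 5.52 to 12.2 and 19.4. Among the falls outside the lists were FMOD, a matrix proteoglycan, from 30.8 and 28.9 CPM to 6.6 and 5.48 (-2.31, SE 0.12), TRANK1, from 36.5 and 31.9 to 7.96 and 7.50, and TNS4, a focal adhesion protein, from 4.50 and 4.85 to 1.15 and 1.27. Separate groups were a condition for choosing these genes. Without any 1 of the 4 libraries, estimates kept their direction, from 2.06 to 2.91 for LIN28A and -2.45 to -2.18 for FMOD. In si-CBX3 and si-FOXA1 at 6 h, against the same si-control libraries, log2 fold changes were 2.33 and 3.89 for LIN28A. ZNF664 was at 2.02 and 2.53, CYP1B1 at 2.62 and 1.12 and TCF7L1 at 3.13 and 2.6. FMOD was at -1.1 and -5.57, TRANK1 at -2.15 and -2.98 and TNS4 at -0.86 and 1.79.

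Many of the differences at 6 h were present before hormone. At 0 h 2841 genes (15.1%) were higher and 2511 (13.4%) lower in si-BRG1, with no library shared with the 6 h comparison. Of the genes higher at 6 h, 1836 (49.9%) were higher at 0 h, which is 64.6% of the 0 h list. Of the genes lower at 6 h, 1483 (44.4%) were lower at 0 h, which is 59.1% of that list. Only 103 genes were called in opposite directions. The difference between the times itself passed the test for 981 genes (5.22%), of which 281 were more positive and 700 more negative at 6 h, and for 701 (9.98%) of the genes called at 6 h.

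**Figure D5:**
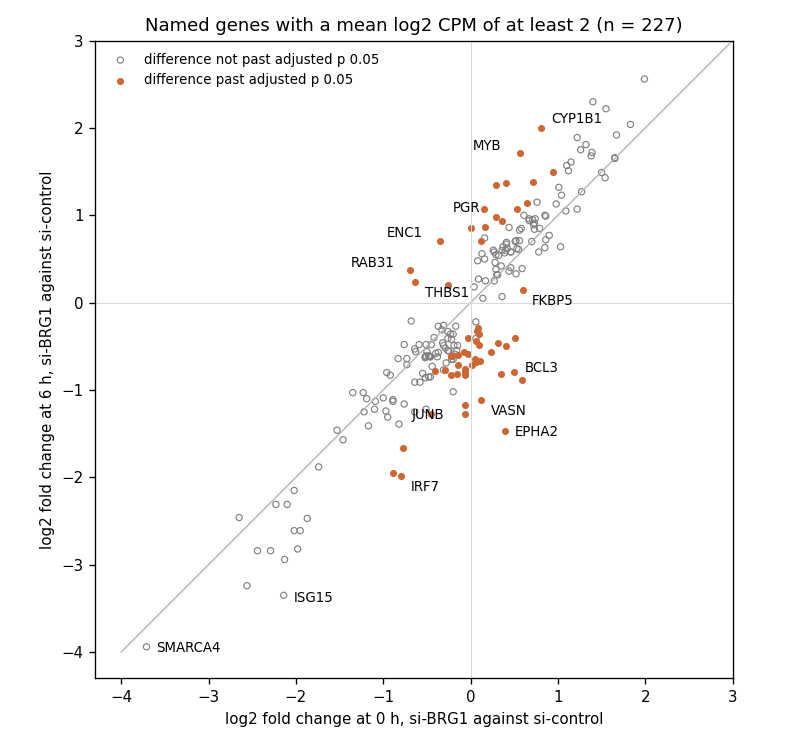
Log2 fold change of si-BRG1 against si-control at 0 h (x axis) and 6 h (y axis) for 227 named genes with a mean log2 CPM of at least 2, filled where the difference between the times passed an adjusted p of 0.05 (57 genes). EPHA2 and VASN fall below the line of equal values and CYP1B1 and ENC1 lie above it. Up to 6 genes per direction were named for the lowest p of this difference, which passed for 5.22% of all genes tested.

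For some genes the difference between si-BRG1 and si-control had opposite signs at the 2 times. ENC1, an actin-binding protein, stood at 39.0 and 39.1 CPM in si-control at 6 h and at 65.1 and 62.4 in si-BRG1, but at 37.9 and 38.8 against 29.8 and 30.3 at 0 h, so the difference of log2 fold changes was 1.06 (adjusted p = 2.50e-05). THBS1, a matrix glycoprotein, was at 0.24 at 6 h and -0.64 at 0 h (difference 0.89, adjusted p = 0.000176), and its 6 h call was lost with the length offset and without si-control replicate 2. RAB31, a vesicle GTPase, was at 0.37 and -0.69. EPHA2, an ephrin receptor, stood at 5.02 and 6.45 CPM against 2.17 and 1.98 at 6 h and at 1.58 and 1.42 against 2.11 and 1.84 at 0 h (difference -1.86, adjusted p = 0.000391). For VASN, a TGF-beta trap, the difference was -1.23, and for BCL3, an NF-kB cofactor, it was -1.29 with estimates of -0.79 at 6 h and 0.50 at 0 h. CYP1B1 was higher at both times, by 2.00 and 0.81 (difference 1.19, adjusted p = 0.000694).

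Genes that respond to hormone were taken from the libraries without siRNA, as those that moved at least 2-fold between the single 0 h and 6 h libraries on log2 of RPKM plus 1, with at least 1 RPKM at the higher time. Of 1021 raised genes tested, 263 (25.8%) were higher and 234 (22.9%) lower in si-BRG1 at 6 h, and the median was 0.03. Of 332 lowered genes, 92 (27.7%) were higher and 57 (17.2%) lower, with a median of 0.09. Over all genes tested the shares were 19.6% higher and 17.8% lower, with a median of 0.04. At 0 h 67 of the lowered genes were already higher and 57 lower. Both sets have longer transcripts than average (median 5107 and 5217 bases against 3880), and longer genes were called higher more often. The part of length in these counts was not tested. The difference between the times passed for 26 of the lowered genes, 8 toward higher and 18 toward lower values at 6 h. Over all genes tested it passed for 981 (5.22%), 281 toward higher and 700 toward lower values, so most went lower there too.

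Among hormone-lowered genes, IGFBP5 stood at 463 and 472 CPM in si-control at 6 h and at 730 and 683 in si-BRG1. CDK14, a cyclin-dependent kinase, went from 2.00 and 2.45 to 5.94 and 6.06 (log2 fold change 1.43, SE 0.14), but was higher at 0 h as well (1.54). Lower ones included CCL28, a mucosal chemokine, from 38.4 and 35.8 to 11.1 and 9.14 (-1.88, SE 0.10), and KRT80, an epithelial keratin, from 206 and 213 to 132 and 114 (-0.77, SE 0.07). Among hormone-raised genes, the thyroid hormone receptor gene THRB stood at 46.5 and 46.3 CPM against 122 and 119.6 (1.38, SE 0.06), GRB10, a growth factor receptor adaptor, at 64.5 and 65.7 against 147 and 159 (1.23, SE 0.07) and the phosphodiesterase PDE5A at 8.80 and 9.08 against 21.6 and 24.6 (1.37, SE 0.11). The actin gene ACTG1 stood at 4242 and 4362 against 2556 and 2187 (-0.86, SE 0.08), with pseudogene copies that make its count uncertain, and AZGP1, a secreted glycoprotein, at 194 and 184 against 119.9 and 123 (-0.64, SE 0.07). Up to 6 genes per direction were named from each set by rule, so these examples do not show how often each direction occurred.

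BRG1 peaks in cells without siRNA numbered 2288 at 0 min and 6180 after 30 min of R5020, with scores that are the authors'. An unusual share lay on chromosome 3, 30.9% and 16%. Of 2037 tested genes with a peak within 5 kb of the 5 prime end at either time, 596 (29.3%) were higher in si-BRG1 at 6 h and 275 (13.5%) lower, with a median of 0.12. Of 16769 genes without one, 18.4% were higher and 18.3% lower. Genes with a peak have longer transcripts (median 4834 against 3795 bases), and the part of length was not tested. With 1 peak list per time there is no replicate of binding.

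Several of the genes above carried a peak at 30 min. At PGR it spanned hg19 chromosome 11, 100997483 to 101000957, centred 2035 bases inside the gene. At ZNF664 it spanned chromosome 12, 124455892 to 124459493. ITGB8, an integrin subunit with a peak centred 60 bases before its 5 prime end (chromosome 7, 20368698 to 20371832), went from 3.49 and 2.92 CPM to 8.17 and 10.1 (log2 fold change 1.51, SE 0.14). C1orf116, an androgen-responsive gene, had a peak centred 67 bases before its 5 prime end (chromosome 1, 207204913 to 207207424) and went from 12.2 and 12.7 CPM to 3.98 and 3.95 (-1.66, SE 0.10). Genes with a peak were named in each direction by rule, so these examples do not show how often each direction occurred. PLSCR1, a phospholipid scramblase induced by interferon, also carried a peak and was lower (-1.46, SE 0.19), while CYP1B1, FMOD, CCL28, ISG15 and IFIT1 had none within 5 kb.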

How the data were processed

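Gene counts were deposited by the authors as fragments per gene, made with featureCounts 1.4.6-p2 in reverse-stranded mode on GENCODE 19 genes of hg19, per the file headers. The submitters' processing notes list Trimmomatic and STAR, without versions. The libraries without siRNA hold the authors' RPKM per transcript, with the quantification tool not stated. BRG1 peaks carry 1 deposited score each, and the notes name Bowtie 1.0.0 and HOMER.

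From the counts, 18806 of 57820 genes passed edgeR's filterByExpr. All 16 siRNA libraries in 8 groups were fitted together with TMM scaling and edgeR's quasi-likelihood test (edgeR 4.0.16, R 4.3.3, 8 residual degrees of freedom). Adjusted p is Benjamini-Hochberg over all genes tested, with a threshold of 0.05, and the scripts were tested on simulated data. Promoters came from RefSeq tables of GRCh38.p14, matched by symbol, and no genome of hg19 was used. The members and the 33 gene lists were chosen with earlier results of these data known, and 7 list genes had no symbol match. Named genes were SMARCA4, SMARCA2, H1-2, PGR, ESR1, FKBP5, SGK1 and TSC22D3; the 14 largest rises and falls with a mean log2 CPM of at least 3 and separate groups; the 6 members of lowest p in a list, or fewer; and up to 6 genes per direction among genes with a BRG1 peak, hormone-responsive genes and genes with a time difference. Alternatives were DESeq2 1.42.0, its size factors in edgeR, no low-count filter, fewer libraries in the fit, a replicate block, leaving out each 6 h library and, added after seeing the data, the length offset. Some single-gene results are not reported here.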

Additional observations from a re-analysis of the deposited data

Results flagged for a closer look

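For 36 genes named above, the log2 fold change of si-BRG1 against si-control differed between 6 h and 0 h in the test of the difference itself (edgeR quasi-likelihood, adjusted p below 0.05). Some of them, up to 6 per direction, were named for the lowest p in this test, so their passing was fixed by the choice. Over all genes tested 5.22% passed. Each value here is the 6 h log2 fold change minus the 0 h one. Among receptors and hormone-induced genes, it was 0.70 for PGR, 0.92 for NR3C2, 0.59 for ELL2, 0.45 for TSC22D3, -0.45 for FKBP5, -0.36 for ERRFI1 and -0.78 for KLF15. Among genes taken from the libraries without siRNA, it was 1.19 for CYP1B1, 0.67 for THRB, 0.96 for PDE5A and -0.48 for KRT80.

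The value was -0.57 for ELF3, -0.60 for CLDN4, -1.17 for CLDN3, -0.56 for KRT19, -1.05 for TNS4 and -0.88 for C1orf116, while SOX9 was at 0.57 and THBS1 at 0.89. Early response and signalling genes were at -1.22 for JUNB, -0.72 for JUND, -1.29 for BCL3, -0.83 for ID3, -1.09 for BBC3, -1.19 for IRF7, -1.86 for EPHA2 and -1.23 for VASN. MYB was at 1.15, CREB3L2 at 0.70, ENC1 at 1.06 and RAB31 at 1.06. Among chromatin genes the values were -0.46 for RUVBL2, -0.48 for CBX8, -0.39 for TRIM28, 0.50 for SUV39H2 and -0.77 for H3C4. These tests use the same si-BRG1 libraries of 6 h that differ by transcript length, and the part of length in them was not tested.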

How the results depend on the processing

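Of 246 named genes 228 passed the threshold and 204 did so under every alternative in which they were tested; no called gene changed direction. Fitting only the 4 libraries at 6 h gave 2023 higher and 1791 lower genes (3814 in all). Leaving out 1 library gave 2509 to 4225 higher and 2281 to 3854 lower genes, 4790 to 8079 in all. The lowest counts came without si-control replicate 2 and the highest without si-BRG1 replicate 1. The length offset gave 2965 higher and 3930 lower. Replicate numbers did not pair the samples, and the replicate block gave 3564 higher and 3256 lower genes (6820 in all). At 4-fold without siRNA, 36 raised genes were higher and 40 lower, and 12 lowered genes were higher and 5 lower. With a pseudocount of 0.1, 155 lowered genes were higher and 100 lower. Keeping peaks scored at or above the median left 371 higher and 157 lower genes. Fewer genes entered at 4-fold and with the stricter peak score, and more with the smaller pseudocount. With 2 libraries per group, small differences and genes of low counts are the least certain.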
